A study of Gasterosteus aculeatus with 12 samples.

Results

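The 100 genes described here had the widest gap between the kidneys of freshwater (FW) sticklebacks and those of saltwater (SW) sticklebacks, with every FW library above every SW library. They were chosen from these same values. The table holds 20860 genes in FPKM (fragments per kilobase of exon, relative to the mapped reads of the library), of which 15503 averaged 1 FPKM or more over the 12 libraries and were tested. Over these genes each library was scaled to a median of 10, and the lowest of the 9 FW values plus 1 was divided by the highest of the 3 SW values plus 1. The 100 highest scores define the set, so the difference between FW and SW fish is given below as a description without a test. Of the 100 genes, 36 carried a symbol and 64 did not. Symbols were taken from the study's own list of salt-responsive genes, which gives a symbol for 1326 of the genes tested. The named genes were therefore picked by the study on these same fish. So were some unnamed genes that it lists without a symbol, such as ENSGACG00000000562. The named genes may not stand for the unnamed ones. No role is given for the genes that carry only an Ensembl identifier.

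The kidney of bony fishes is both an excretory organ and a site of blood formation, where stem cells, developing B cells, neutrophils and macrophages lie between the nephrons. Phagocytes kill microbes with the NADPH oxidase, whose membrane part is made of CYBB (the catalytic subunit) and CYBA and whose activity is switched on by cytosolic subunits such as NCF1. B cells and plasma cells make immunoglobulin light chains such as those labelled IGKC, and CXCL12 is a chemokine that holds blood-forming cells in their niche. In a whole-kidney extract, a smaller number of cells of a type and less RNA in each cell cannot be told apart.

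All fish were adult females of the threespine stickleback, *Gasterosteus aculeatus*, a small fish with lake and sea populations, caught in the wild and kept for 30 days at a set salinity before kidney RNA was sequenced. FW fish came from a lake and were held at 0 g/L (FW00K), 11 g/L (FW11K) or 33 g/L (FW33K), and SW fish came from a bay and were held at 33 g/L (SW33K). Each of the 4 groups had 3 libraries, and the methods describe a library as made from the kidneys of a single fish. The study kept SW fish at the lower salinities too, but processed no kidney tissue of those groups, so the series has no such libraries. FW and SW fish differed in population, in collection site and in the alignment of their reads, since the authors allowed 2 mismatches per read for FW fish and 3 for SW fish after masking known polymorphic positions, so population and alignment cannot be told apart. FW00K and FW11K fish differed from SW33K fish in salinity as well. The read totals listed by the study for SW33K libraries lay within the range of the FW libraries, 5 of which were below every SW33K library, and the libraries with by far the fewest reads were FW33K replicate 1 and FW11K replicate 1. FPKM values hold no counts, so the reads behind a single gene are unknown.

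Some libraries stood apart from their group. Over all tested genes, replicates 2 and 3 of each group correlated at 0.990 to 0.992 (Pearson's r across genes of the log2 values, a description), whereas replicate 1 correlated with the others at 0.854 to 0.941. For the 100 genes the median absolute log2 difference between replicates 2 and 3 was 0.07 to 0.11, and between replicate 1 and another replicate it was 0.19 to 1.01, largest in FW11K. FPKM gives no counting error, so whether replicates 2 and 3 differ by more than sampling noise, and whether they are separate fish or repeat libraries, was not tested. They are counted and named as separate fish below unless stated otherwise, and if they are repeats the p-values are too small. The deposited median over tested genes was 14.4 to 16.7 FPKM for FW00K fish, 10.3 to 11.8 FPKM for FW11K fish and 4.39 to 6.75 FPKM for FW33K fish, against 5.43 to 11.0 FPKM for SW33K fish, and scaling removed this offset. All values below are scaled FPKM unless stated otherwise, and an SD is over the 3 libraries of a group.

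Few of the 100 genes were near zero in SW33K fish. Only 1 gene had all of its SW33K values under 0.1, 5 had them under 0.5 and 13 under 1, and the counts on the deposited FPKM were 1, 7 and 14. The highest SW33K value ranged up to 217 with a median of 5.82, and in 35 genes it reached 10, the level of the median gene. The gene under 0.1 was *LIM2*, a membrane protein of the eye lens in mammals, with 9.83, 29.5 and 30.0 in FW00K fish, 13.1, 1.85 and 3.01 in FW11K fish and 1.59, 1.01 and 1.17 in FW33K fish, while it was listed at 0 in all 3 SW33K fish. Its lowest FW value was only 1.01, so *LIM2* was low in FW33K fish too. The gap was wider in ENSGACG00000017681, the highest-scoring gene (6.94), with 13.6, 14.0 and 13.6 in FW00K fish, 16.4, 9.71 and 10.4 in FW11K fish, 12.2, 8.42 and 6.97 in FW33K fish, against 0, 0.0668 and 0.148 in SW33K fish. ENSGACG00000009919 had 4.0 to 18.4 over the 9 FW fish, against 0, 0.197 and 0 in SW33K fish. ENSGACG00000009076 and *CXCR5* complete the 5 genes under 0.5, and ENSGACG00000009076 was low in most FW fish outside FW11K as well, at 3.72 to 4.68 in FW00K fish and 68.8, 4.55 and 4.28 in FW33K fish. In all, 4 genes were listed at 0 in at least 1 SW33K fish. What share of these near-zero values came from the alignment of SW reads was not tested.

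**Figure D1:**
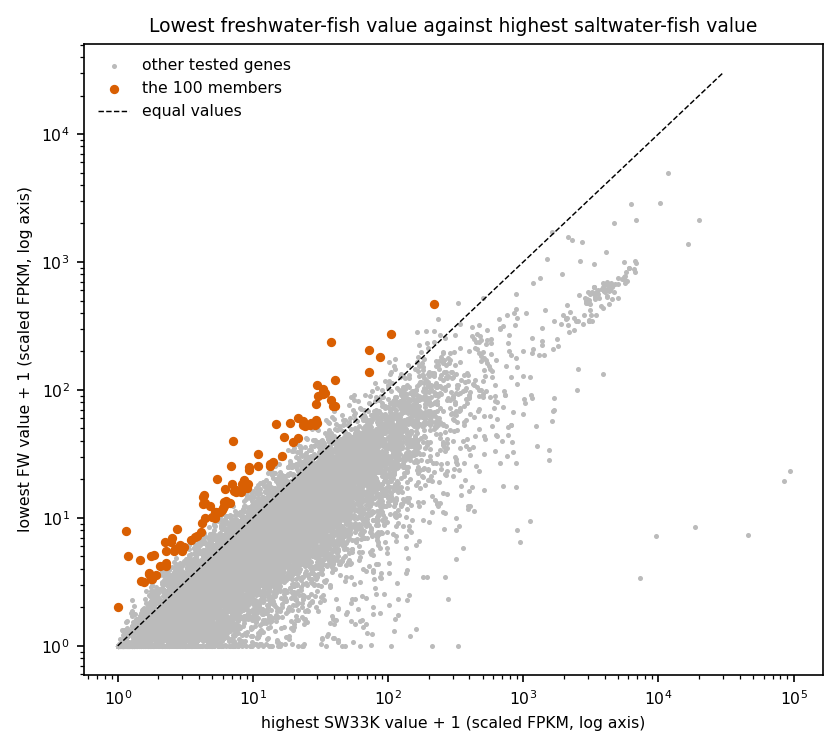
Lowest value over the 9 FW libraries plus 1 (vertical, scaled FPKM, log axis) against the highest value over the 3 SW33K libraries plus 1 (horizontal, scaled FPKM, log axis) for all 15503 tested genes. Each point is a gene, the 100 chosen genes are orange, and the dashed line marks equal values. The chosen genes run along the upper edge of the cloud, up to a highest SW33K value of 217 before 1 was added. Only a few lie at the left edge, near zero in SW33K fish.

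The scores formed a continuous range with no step at the limit of the set. The median score was 2.16, with 13 genes above 3 and 69 above 2, whereas the median over all tested genes was 0.55. Just inside the limit were *DGKI* at 1.86, ENSGACG00000013726 at 1.85 and ENSGACG00000003028 at 1.84, and just outside were ENSGACG00000017332 at 1.84, ENSGACG00000016266 at 1.84 and ENSGACG00000008327 at 1.83. Over all tested genes, 1241 (8.00%) had every FW value above every SW33K value, as all 100 chosen genes do by construction. On the deposited FPKM, without scaling, this held for 93 of the 100 genes and for 2.77% of all tested genes. In the opposite direction, 1094 genes (7.06%) had every SW33K value above every FW value. Among the 100 genes scored highest in that opposite direction, none had all FW values under 0.5, and their scores ran from 3.74 down to 1.55.

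At the median, the chosen genes were above the level of all tested genes in FW fish and below it in SW fish. Their median level was 34.2 over the FW fish, against 4.76 in SW33K fish, while the median over all tested genes was 11.0 in FW fish and 10.3 in SW33K fish. The median ratio to SW33K, computed on group means plus 1, was 4.86 for FW00K (2.5 to 33.5), 8.51 for FW11K (2.54 to 136) and 3.37 for FW33K (2.13 to 33.7), with medians of 0.984, 0.990 and 1.00 over all tested genes. On the deposited FPKM these medians were 8.20, 10.9 and 2.28 for the chosen genes, beside 1.58, 1.19 and 0.703 for all tested genes. The smallest gap was therefore that between FW33K and SW33K, the pair of groups held at the same salinity. The fish that set the gap were also uneven. The lowest FW value lay in FW33K replicate 1 for 37 genes, in FW33K replicate 2 for 24 and in FW33K replicate 3 for 13. The highest SW33K value lay in SW33K replicate 1 for 69 genes, compared with 46.8% of all tested genes.

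The 3 FW groups were next compared with each other. The scoring rule did not use the order of the salinities, but it used the lowest of these same 9 FW values. That value lay in an FW33K library for most genes, so the shares below are not independent of the choice of genes. How far the choice moved them was not tested. Within FW fish the level of the chosen genes was mostly highest at 11 g/L and lowest at 33 g/L. The highest of the 3 FW means was that of FW11K in 86 of the 100 genes (35.0% of all tested genes), and the lowest was that of FW33K in 83 (37.5% of all tested genes). Tests were made with limma on log2(scaled FPKM + 1) over the 9 FW libraries, with a Benjamini-Hochberg adjusted p below 0.01 over all tested genes. For FW33K against FW11K, 29 of the 100 genes fell and 0 rose, where 3.58% of all tested genes fell and 6.44% rose, and the median log2 fold change was -1.31 for the set and -0.04 for all tested genes. For FW33K against FW00K, 5 genes fell and 0 rose, where 5.46% of all tested genes fell and 9.84% rose, so the share of falling genes was near the background. For FW11K against FW00K, 4 genes rose and 0 fell, where 2.14% of all tested genes rose and 1.86% fell. At an unadjusted p under 0.05, 80, 35 and 48 of the 100 genes passed in these 3 comparisons in either direction, where 40.4%, 41.4% and 35.1% of all tested genes did. The 3 comparisons share groups and are not independent of each other.

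These calls rest on how replicates 2 and 3 are counted. When the 2 nearly equal libraries were averaged and counted as 1 sample, limma called 0 of the 100 genes in each of the 3 comparisons, with 45, 8 and 21 of them at an unadjusted p under 0.05 for FW33K against FW11K, FW33K against FW00K and FW11K against FW00K. The calls over all 15503 tested genes were then 7, 7 and 0, and the median log2 fold changes of the set were -1.20, -0.54 and 0.61. FW11K replicate 1, a library of few reads, also weighed on the counts: without it 75 genes of the set changed between FW33K and FW11K, 34 between FW33K and FW00K and 58 between FW11K and FW00K. The calls over all tested genes moved with them, to 4878, 4144 and 3414 without that library from 1554, 2372 and 620 with it. The shift was thus not confined to the set. FW11K was then left with only the nearly equal replicates 2 and 3. FW33K replicate 1 had few reads too, but without it the count for FW33K against FW11K fell to 14. Whether few reads or the likeness of the remaining pair moved the counts was not tested. Without FW11K replicate 2, FW11K replicate 3 or FW33K replicate 2 the first count was 1, without FW33K replicate 3 it was 2, and it was 14 without FW00K replicate 2, FW00K replicate 3 or FW33K replicate 1. The second count was 1 without any single FW33K replicate and without FW00K replicate 2 or 3, and 2 or 3 without FW11K replicate 2 or 3, and the third was 0 without replicate 2 or replicate 3 of any FW group. On the deposited FPKM the median log2 fold change of all tested genes was itself -0.82, -1.20 and -0.34 in these comparisons, and that of the set was -2.18, -1.87 and 0.27, so on either scale the set lay below all genes in both comparisons of FW33K and above them in FW11K against FW00K.

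**Figure D2:**
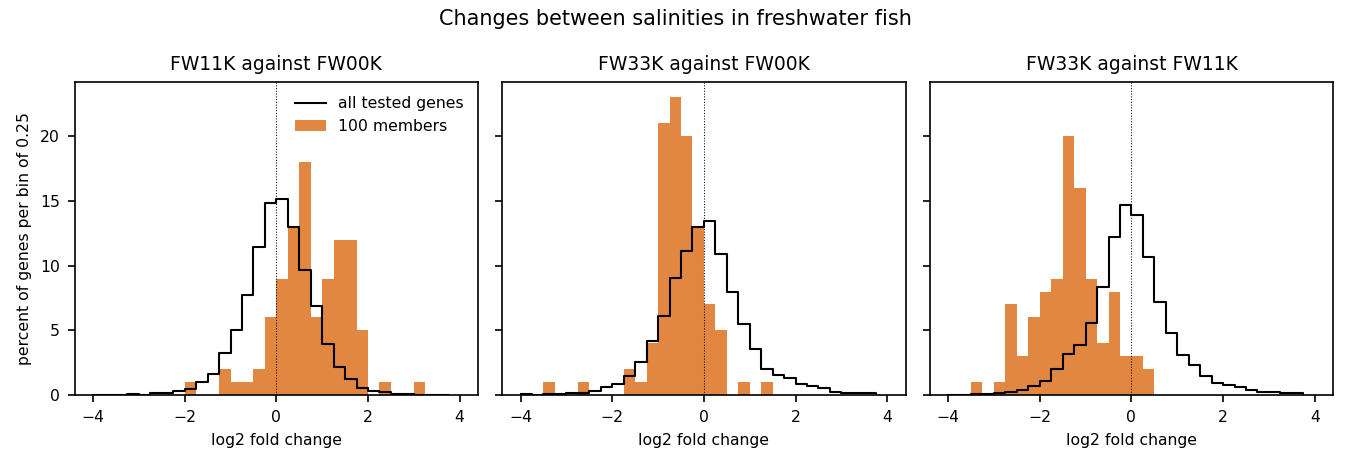
Distribution of log2 fold changes (horizontal, on log2(scaled FPKM + 1)) in the 3 comparisons between salinities in FW fish, in percent of genes per bin of 0.25 (vertical). Orange bars are the 100 chosen genes and the black line is all 15503 tested genes. Most of the bars lie right of zero for FW11K against FW00K, where 87 genes are positive and the median is 0.71, and left of it for FW33K against FW11K, where 5 are positive and the median is -1.31.

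The NADPH oxidase of phagocytes was represented by both membrane subunits and a cytosolic one. *CYBB*, the catalytic subunit, had 212, 188 and 197 in FW00K fish, 294, 487 and 501 in FW11K fish and 118, 138 and 141 in FW33K fish, against 39.5, 26.7 and 27.2 in SW33K fish. The partner subunit *CYBA* had 139, 172 and 179.9 in FW00K fish, 225, 466 and 484 in FW11K fish and 94.4, 95.5 and 99.4 in FW33K fish, against 33.0, 25.4 and 25.3 in SW33K fish. The organizing subunit *NCF1* had 91.8, 81.5 and 83.4 in FW00K fish, 134, 256 and 272 in FW11K fish and 58.3, 53.2 and 54.8 in FW33K fish, against 12.2, 13.1 and 13.9 in SW33K fish. The 3 subunits thus shared the order FW11K, FW00K, FW33K and SW33K with no overlap between the groups. The place of SW33K in this order was fixed by the choice of genes. The order of the FW groups was common in the set, with 86 of 100 genes highest in FW11K and 83 lowest in FW33K by mean. The share of all tested genes without overlap between the groups was not derived. The group means plus 1 of the 3 subunits were 3.37 to 4.14 times those of SW33K in FW33K and 13.3 to 15.8 times in FW11K. All 3 fell in FW33K against FW11K, where 29 of the whole set and 3.58% of all tested genes fell. The log2 fold change was -1.93 for *CYBA* (SE 0.30, adjusted p = 0.00350), -1.91 for *NCF1* (SE 0.26, adjusted p = 0.00222) and -1.65 for *CYBB* (SE 0.24, adjusted p = 0.00269). None passed in FW33K against FW00K, where the log2 fold changes were -0.75 to -0.59 (adjusted p = 0.0921 to 0.114), or in FW11K against FW00K, where they were 1.06 to 1.29 (adjusted p = 0.0152 to 0.0299). With replicates 2 and 3 averaged, the adjusted p for FW33K against FW11K was 0.145 for *NCF1*, 0.165 for *CYBA* and 0.167 for *CYBB*.

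Immunoglobulin light chain genes were present in several copies. All 7 copies labelled *IGKC* (the constant region of the kappa light chain) that were tested under that symbol were in the set, and since such copies can be nearly identical, reads may have been divided among them and a copy's own level is uncertain. Copies without a symbol here cannot be recognised, so whether they were in the set is unknown. *IGKC* (4 of 24) had 153, 206 and 209 in FW00K fish, 125, 1316 and 1365 in FW11K fish and 105, 91.7 and 101 in FW33K fish, against 31.4, 15.4 and 17.3 in SW33K fish. Over the 7 copies the values were 95.4 to 209 in FW00K, 55.8 to 105 in FW33K and 8.38 to 31.9 in SW33K. In FW11K they were 764 to 1365 in replicates 2 and 3 but 52.4 to 125 in replicate 1. That range overlapped the range of FW33K and went past it at both ends. In SW33K, replicate 1 was the highest instead, with 22.4 to 31.9 against 8.38 to 17.3 in replicates 2 and 3. SW33K lay below every FW fish in all 7 copies, as the choice of the set requires, while FW11K fish were split. The log2 fold changes of the 7 copies in FW33K against FW11K were -2.79 to -2.40, and none passed the test (limma, adjusted p = 0.0185 to 0.0940). Without FW11K replicate 1 all 7 passed, with -3.81 to -3.64 (adjusted p = 9.75e-06 to 3.25e-05). FW11K then held only replicates 2 and 3, so if these are repeats the p-values measure no spread between FW11K fish. With replicates 2 and 3 averaged none passed (adjusted p = 0.268 to 0.509). Nor did any in FW33K against FW00K, with -1.10 to -0.83 (adjusted p = 0.292 to 0.495), or in FW11K against FW00K, with 1.34 to 1.78 (adjusted p = 0.0982 to 0.301).

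The chemokine *CXCL12* (2 of 2) had the highest score among the named genes (6.25). It reached 263, 559 and 583 in FW00K fish, 372, 718 and 753 in FW11K fish and 237, 235 and 243 in FW33K fish, against 25.7, 33.8 and 36.8 in SW33K fish. The lowest FW fish was thus several times above the highest SW33K fish, a gap that the score itself selects. The mean plus 1 of FW33K was 7.23 times that of SW33K. The gap was smaller on the deposited FPKM, with 104, 159 and 149 in FW33K fish, against 14.0, 37.2 and 38.9 in SW33K fish. FW00K and FW11K fish overlapped and FW33K fish lay below both. FW33K against FW11K gave a log2 fold change of -1.29 (SE 0.38, adjusted p = 0.0385), and no comparison passed. *CXCR5*, the receptor that guides B cells to follicles in mammals, was a low gene with 2.79, 3.37 and 3.94 in FW00K fish, 2.21, 6.32 and 6.44 in FW11K fish and 2.23, 2.24 and 2.22 in FW33K fish, against 0.486, 0.288 and 0.164 in SW33K fish. It was among the 5 genes under 0.5 in every SW33K fish, and it passed no salinity comparison.

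**Figure D3:**
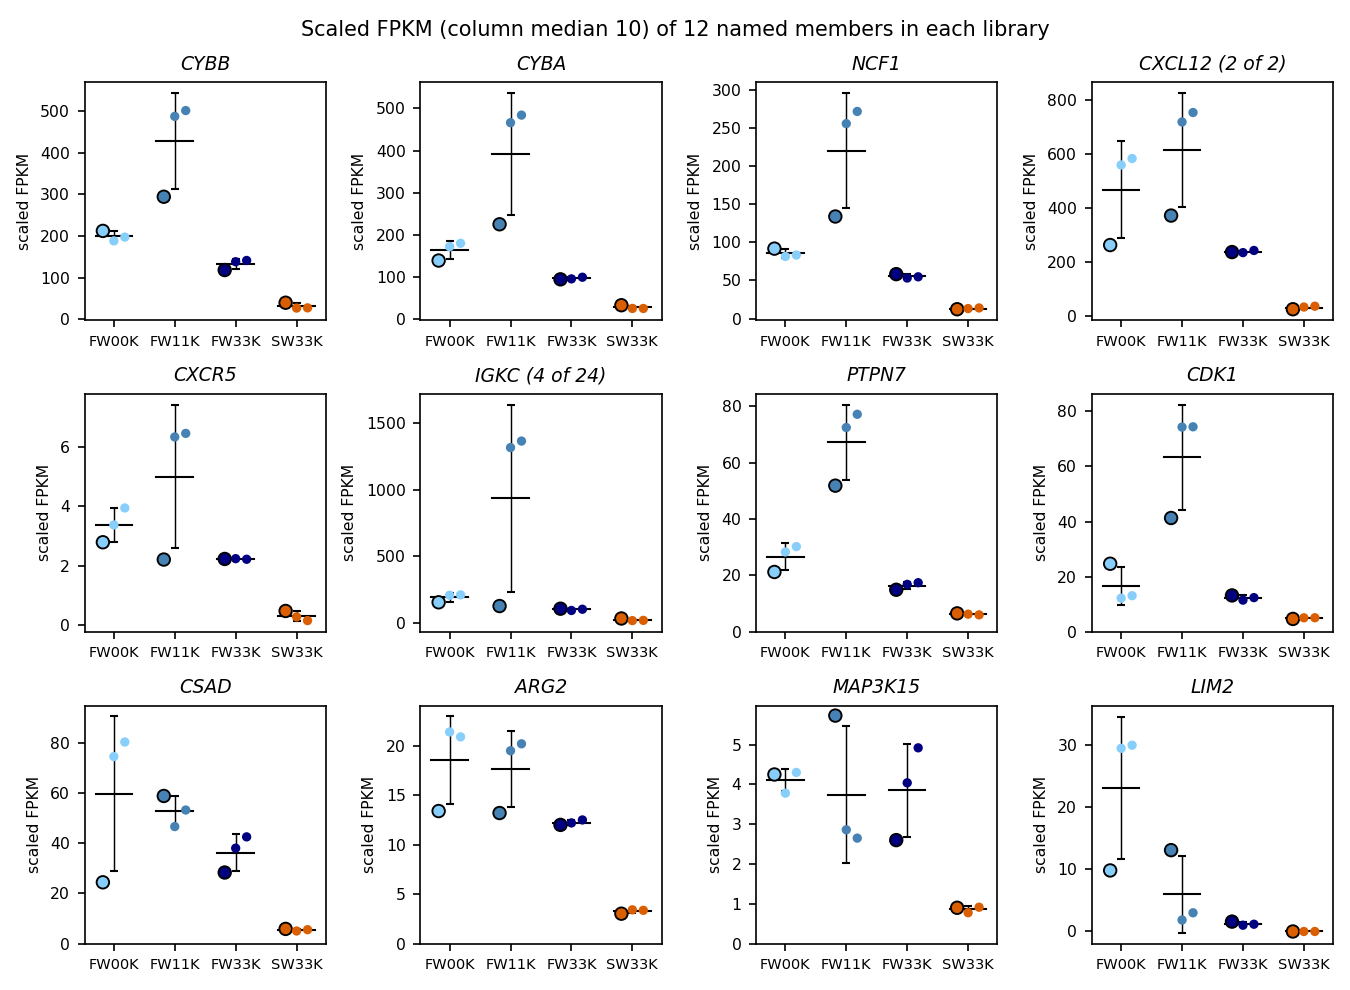
Scaled FPKM (vertical, linear axes that differ between panels) of 12 named genes in each of the 12 libraries. Points are libraries, with replicate 1 outlined in black, horizontal bars are group means and error bars are the SD over 3 libraries. In every panel the 3 SW33K points lie lowest, as the choice of genes requires. For *IGKC* (4 of 24) FW11K replicate 1 stands apart, with 125 beside 1316 and 1365 in replicates 2 and 3.

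Genes of lipid mediator pathways, grouped after the names were seen, were also in the set. *ALOX5*, which makes the precursor of leukotrienes, had 66.1, 104 and 106 in FW00K fish, 108, 167 and 174 in FW11K fish and 41.9, 65.2 and 68.4 in FW33K fish, against 14.4, 14.5 and 16.1 in SW33K fish. *CYP4F2*, whose human counterpart hydroxylates leukotriene B and arachidonic acid, ranged from 59.6 to 187 over the FW fish and from 13.5 to 20.7 over SW33K fish. *PTAFR*, the receptor for platelet-activating factor, had 11.2, 8.19 and 9.46 in FW00K fish, 15.4, 19.5 and 21.9 in FW11K fish and 5.72, 8.87 and 9.04 in FW33K fish, against 2.49, 1.79 and 1.91 in SW33K fish. Of these 3 genes only *PTAFR* fell in FW33K against FW11K (log2 fold change -1.18, SE 0.21, adjusted p = 0.00639, and 0.0119 with the replicate number as a block). In that comparison 29 of the whole set and 3.58% of all tested genes fell. *ALOX5* (-1.34, adjusted p = 0.0131) and *CYP4F2* (-1.06, adjusted p = 0.0132) did not pass. *PTAFR* gave an adjusted p of 0.178 with replicates 2 and 3 averaged.

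Among 7 genes of leukocytes and clotting, grouped after the names were seen, 4 fell in FW33K against FW11K, as did 29 of the whole set and 3.58% of all tested genes, and 1 of the 4 also rose in FW11K against FW00K. *PTPN7*, a tyrosine phosphatase of blood cells, had 21.2, 28.3 and 30.2 in FW00K fish, 51.8, 72.4 and 77.1 in FW11K fish and 14.9, 16.8 and 17.4 in FW33K fish, against 6.53, 6.25 and 6.0 in SW33K fish. Its 4 groups did not overlap, though the share of tested genes without overlap was not derived. *PTPN7* fell in FW33K against FW11K (log2 fold change -1.95, SE 0.20, adjusted p = 6.94e-04) and rose in FW11K against FW00K (1.30, SE 0.20, adjusted p = 0.00699). The rise passed in only 2 of 9 runs with a single FW library left out. Its adjusted p was 0.368 with replicates 2 and 3 averaged. For FW33K against FW11K, *PTPN7* was the only gene of the set that passed when any single FW library was left out, and its adjusted p was 0.0857 with replicates 2 and 3 averaged. *SEMA7A*, a membrane-anchored semaphorin, had 46.0, 57.5 and 59.2 in FW00K fish, 58.6, 102 and 104 in FW11K fish and 24.5, 28.0 and 27.5 in FW33K fish, against 12.5, 9.56 and 9.75 in SW33K fish. *ADAM8* (1 of 2), a membrane metalloprotease of leukocytes, ranged from 15.5 to 50.6 over FW fish and from 4.25 to 6.55 over SW33K fish. *P2RX1*, an ATP-gated ion channel, ranged from 3.46 to 8.22 over FW fish and from 0.788 to 1.27 over SW33K fish. All 3 genes fell in FW33K against FW11K, *SEMA7A* with a log2 fold change of -1.65 (SE 0.24, adjusted p = 0.00269), *ADAM8* (1 of 2) with -1.39 (SE 0.21, adjusted p = 0.00336) and *P2RX1* with -0.95 (SE 0.15, adjusted p = 0.00386). With replicates 2 and 3 averaged their adjusted p was 0.150 to 0.205.

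The other 3 genes of that group passed no salinity comparison. *CKLF-CMTM1*, named for a chemokine-like factor and its neighbour, had 41.2 in FW11K replicate 1 and 127 and 126 in the other FW11K fish, while FW00K and FW33K fish had 22.5 to 33.8 and SW33K fish 5.96 to 8.36. *F13A1*, the A subunit of the clotting factor that cross-links fibrin, had 48.1, 38.6 and 39.1 in FW00K fish, 33.6, 87.3 and 89.8 in FW11K fish and 30.7, 24.5 and 26.2 in FW33K fish, against 9.90, 5.07 and 5.52 in SW33K fish. *TRPV2*, a cation channel found in macrophages, did not share the 11 g/L maximum: it had 9.74, 20.7 and 19.9 in FW00K fish, 17.2, 8.95 and 10.1 in FW11K fish and 17.9, 15.9 and 16.0 in FW33K fish, against 3.39, 2.47 and 2.23 in SW33K fish.

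Of 3 genes of cell division, grouped after the names were seen, 1 passed a salinity comparison. In FW33K against FW11K, 29 of the whole set and 3.58% of all tested genes fell. *CDK1*, the kinase that drives entry into mitosis, had 24.7, 12.2 and 13.1 in FW00K fish, 41.3, 74.3 and 74.4 in FW11K fish and 13.2, 11.5 and 12.4 in FW33K fish, against 4.67, 5.08 and 5.10 in SW33K fish. It fell in FW33K against FW11K (log2 fold change -2.22, SE 0.31, adjusted p = 0.00224) and rose in FW11K against FW00K (1.88, SE 0.31, adjusted p = 0.00766), with an adjusted p of 0.120 and 0.370 when replicates 2 and 3 were averaged. *PLK1*, another mitotic kinase, had 29.5 in FW00K replicate 1 but 4.75 and 5.02 in the other FW00K fish, 18.1, 40.3 and 39.4 in FW11K fish and 5.81, 6.51 and 6.77 in FW33K fish, against 1.67, 1.49 and 1.20 in SW33K fish. *RRM1* (2 of 2), the large subunit of ribonucleotide reductase, had 5.03, 2.5 and 2.34 in FW00K fish, 4.26, 13 and 13.8 in FW11K fish and 2.65, 2.41 and 2.33 in FW33K fish, against 0.505, 0.564 and 0.749 in SW33K fish. In all 3 genes FW00K replicate 1 was the highest FW00K fish and FW11K replicate 1 the lowest FW11K fish. *PLK1* (-2.11, adjusted p = 0.0361) and *RRM1* (2 of 2) (-1.57, adjusted p = 0.0232) did not pass in FW33K against FW11K.

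Of 5 genes of metabolism, grouped after the names were seen, 3 fell in FW33K against FW00K, where 5 of the whole set and 5.46% of all tested genes fell. *AMPD3* (1 of 2), an AMP deaminase known from red blood cells, had 44.2, 37.3 and 39.9 in FW00K fish, 19.6, 33.1 and 33.6 in FW11K fish and 14.1, 12.5 and 13.8 in FW33K fish, against 5.29, 3.66 and 4.46 in SW33K fish. Its level was lower at each higher salinity with no overlap, though the share of tested genes without overlap was not derived. It fell in FW33K against FW00K (log2 fold change -1.52, SE 0.21, adjusted p = 0.00145). It was the only gene of the set called in that comparison when any single FW library was left out, with an adjusted p of 0.0719 when replicates 2 and 3 were averaged. *CPA1*, a digestive carboxypeptidase of the pancreas in mammals, had 222, 188 and 196 in FW00K fish, 157, 243 and 255 in FW11K fish and 54.0, 89.3 and 88.6 in FW33K fish, against 15.3, 16.9 and 17.7 in SW33K fish. *TTPA*, the transfer protein for vitamin E, had 37.6, 46.5 and 47.1 in FW00K fish, 39.6, 57.3 and 61.4 in FW11K fish and 17.3, 21.1 and 24.1 in FW33K fish, against 7.37, 5.77 and 6.86 in SW33K fish. Both genes fell in FW33K against FW00K, *CPA1* with a log2 fold change of -1.41 (SE 0.27, adjusted p = 0.00569) and *TTPA* with -1.04 (SE 0.21, adjusted p = 0.00759), and against FW11K, with -1.49 (SE 0.27, adjusted p = 0.00632) and -1.29 (SE 0.21, adjusted p = 0.00456). With replicates 2 and 3 averaged the adjusted p of these 4 differences was 0.112 to 0.184.

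*CSAD*, which makes the taurine precursor hypotaurine, and *ARG2*, the mitochondrial arginase, passed no salinity comparison. *CSAD* had 24.4, 74.5 and 80.3 in FW00K fish, 58.8, 46.6 and 53.2 in FW11K fish and 28.3, 38 and 42.5 in FW33K fish, against 5.83, 5.0 and 5.52 in SW33K fish. *ARG2* had 13.4, 21.4 and 20.9 in FW00K fish, 13.2, 19.5 and 20.2 in FW11K fish and 12.0, 12.2 and 12.5 in FW33K fish, against 3.02, 3.41 and 3.36 in SW33K fish. In *CSAD* the FW groups overlapped, in *ARG2* FW33K fish lay just below the others, and in both genes the gap to SW33K fish was wider than the whole range of the SW33K values.

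The kinases and the remaining named genes varied more in their salinity pattern. *MAP3K15*, a kinase of the apoptosis signal-regulating family, had 4.25, 3.78 and 4.30 in FW00K fish, 5.73, 2.86 and 2.65 in FW11K fish and 2.60, 4.04 and 4.92 in FW33K fish, against 0.899, 0.775 and 0.913 in SW33K fish. The FW groups overlapped, and FW33K against FW00K gave a log2 fold change of -0.10 (SE 0.28, adjusted p = 0.810), whereas on the deposited FPKM it was -1.19 (adjusted p = 0.00629), where all tested genes had a median of -1.20. It was 0.16 after quantile normalization and 0.10 without FW33K replicate 1, so the direction of *MAP3K15* between these groups was not settled by these FPKM values. The study itself reported that *MAP3K15* decreased with salinity in FW fish, by linear regression, and differed between FW00K and FW33K by cuffdiff. In its list of salt-responsive genes, which required edgeR, DESeq and baySeq together, *MAP3K15* is marked only for FW33K against SW33K. The study also lists *MAP3K15* among the genes with primers for quantitative RT-PCR, which is not part of the data used here. It reported that RT-PCR bore out the FW33K to FW00K difference for most, but not all, of the genes selected. *DGKI*, a diacylglycerol kinase, ranged from 4.55 to 18.6 over FW fish and from 1.58 to 1.99 over SW33K fish, and fell in FW33K against FW11K (-1.37, SE 0.25, adjusted p = 0.00691; 0.0117 with the replicate number as a block and 0.207 with replicates 2 and 3 averaged). *FAM84B* was nearly level within FW fish, at 11.9 to 17.0, against 2.77 to 3.28 in SW33K fish, and *TMEM154* had 18.8 to 68.5 in FW fish, against 5.72 to 7.62 in SW33K fish. *GNMB* was high in FW00K fish (11.4, 28.7 and 30.5), uneven in FW11K fish (2.77, 15.6 and 17.2) and low in FW33K fish (2.76, 2.90 and 2.70), against 0.568, 0.693 and 0.662 in SW33K fish. *LIM2*, described above, fell in FW33K against FW00K with a log2 fold change of -3.28 (SE 0.61, adjusted p = 0.00488; 0.0951 with replicates 2 and 3 averaged).

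Markers of the cell types of the kidney were set beside these genes. Of 32 symbols chosen for blood and immune cells, 7 genes could be matched, since only the study's list carried symbols, and 3 of the 7 were in the set (*CYBB*, *CYBA* and *NCF1*). *CORO1A*, an actin regulator of leukocytes, also had every FW value above every SW33K value, with 113 to 701 in FW fish and 66.0 to 78.7 in SW33K fish. The summed level of the 7 genes was 762 to 846 in FW00K fish, 1144 to 2221 in FW11K fish and 439 to 529 in FW33K fish, against 166 to 203 in SW33K fish. It includes the 3 genes of the set, which were chosen to be low in SW33K, so its low level there is not independent of that choice. The means of *CYBB*, *CYBA* and *NCF1* were 132, 96.4 and 55.4 in FW33K, against 31.1, 27.9 and 13.1 in SW33K. A sum without them was not derived. Other leukocyte markers did not separate the 2 groups at 33 g/L: *SPI1* (2 of 2), a transcription factor of myeloid and B cells, had 3.14 to 5.63 in FW33K fish and 4.10 to 4.51 in SW33K fish, and *MPEG1*, a pore-forming protein of macrophages, had 14.9 to 27.0 in FW33K fish and 19.7 to 26.8 in SW33K fish. *SLC4A1* (1 of 2), the anion exchanger of red blood cells, likewise overlapped, with 5.98, 92.1 and 97.8 in FW33K fish and 7.94, 10.1 and 9.83 in SW33K fish.

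Nephron genes were detected in all fish. The sum of the matched ones lay above that of SW33K fish in FW00K fish, and below it in FW33K fish. The 9 matched genes of the nephron list, which include *SLC12A1*, *SLC12A3* and the podocyte gene *NPHS1*, summed to 1041 to 1266 in FW00K fish, 792 to 969 in FW11K fish and 377 to 406 in FW33K fish, against 490.2 to 834 in SW33K fish, and none had every FW value above every SW33K value. Another gene of the list gave the largest part of the sum in every group, so the sum does not stand for the named genes. The 11 matched genes of antigen presentation and the interferon response summed to 286 to 532 in FW00K fish, 838 to 1730.4 in FW11K fish and 254 to 493 in FW33K fish, against 428 to 452 in SW33K fish, and 1 of them, *IRF3*, was above SW33K in every FW fish. The 6 muscle genes summed to 25 to 278 in FW00K fish, 5.66 to 26.8 in FW11K fish and 1.09 to 2.20 in FW33K fish, against 3.98 to 5.95 in SW33K fish. The lists for oocytes, liver and interrenal tissue matched 1 gene each. *DDX4*, a germ cell gene, had 25.7 in FW00K replicate 1 and no more than 3.91 in any other fish, *AHSG*, a plasma protein of the liver, had 0.170 to 4.86 over FW fish and 0.546 to 4.53 over SW33K fish, and *STAR*, of steroid synthesis, had 0 to 3.44 over FW fish and 0.0501 to 0.297 over SW33K fish. None of the genes of these last 6 lists was in the set. The median log2 ratio of mean FW to mean SW33K was 1.92 (1.16 to 2.73) for the 4 blood and immune genes outside the set. It was 0.16 for the nephron genes, with the lowest at -0.66 and the highest not reported here. For the antigen presentation genes it was 0.85 (-0.40 to 1.55), and for the muscle genes 2.44 (1.22 to 3.85). All tested genes had 0.05 and the set 2.52. The FW mean pools 3 salinities. In FW33K only *CORO1A* of the 4 immune genes lay wholly above SW33K, and the muscle sum lay below that of SW33K. The list genes were matched only through the study's salt-responsive list, so they are a selected sample beside all tested genes. How far the number of leukocytes, or the number of muscle cells in FW00K fish, enters the levels of the chosen genes was not tested.

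Of the 100 genes, 50 lay within 30 identifier numbers of another, in 19 runs, where 22 of the 100 genes scored highest in the opposite direction did. The share for any 100 tested genes was not derived, and identifier numbers are not positions on a chromosome. The largest run held 9 of 50 tested genes, with *CSAD*, *IGKC* (4 of 24), *IGKC* (1 of 24), *IGKC* (3 of 24), *IGKC* (5 of 24) and 4 genes without a symbol. A second run of 5 genes held *IGKC* (13 of 24), *IGKC* (9 of 24), *IGKC* (21 of 24) and 2 genes without a symbol. *CXCL12* (2 of 2) stood with *GNMB*, *P2RX1* with *TRPV2*, and *CYP4F2* with *SEMA7A*, while *CYBB*, *NCF1*, *PTAFR*, *MAP3K15*, *ADAM8* (1 of 2) and *TMEM154* each stood with genes that carry no symbol. ENSGACG00000017681 and ENSGACG00000017701, which rank 1 and 3 by score, were in a run of 3. ENSGACG00000017701 had 142, 93.6 and 86.4 in FW00K fish, 38.6, 315 and 254 in FW11K fish and 84.6, 121 and 118 in FW33K fish, against 6.08, 0.465 and 0.160 in SW33K fish.

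Which genes belong to the set depended on a few fish and on the scaling. Of the 100 genes, 61 were still among the 100 highest scores without FW33K replicate 1, and 61 without SW33K replicate 1, while leaving out any other single library kept 89 to 100. Median-ratio scaling kept 98, quantile normalization 92, a minimum mean of 5 FPKM 94 and a pseudocount of 0.1 82. Without scaling 51 were kept, and when the mean of FW fish was divided by the mean of SW33K fish in place of the lowest by the highest, 25 were kept. Under all 18 of these changes 20 genes stayed in, of which 7 carry a symbol: *CXCL12* (2 of 2) and the *IGKC* copies 1, 3, 4, 5, 13 and 21 of 24.

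**Figure D4:**
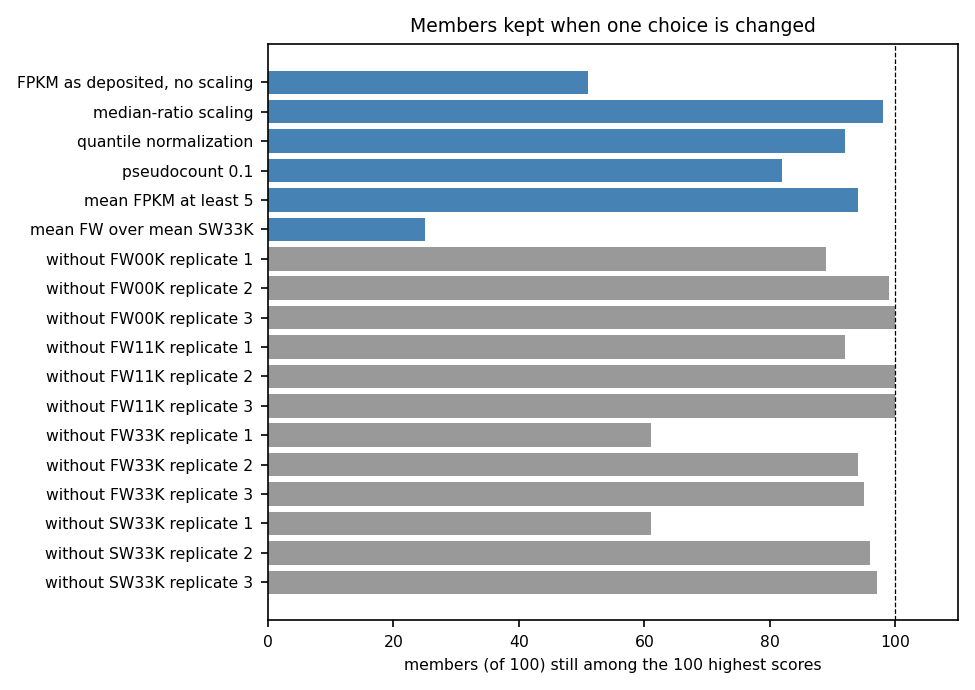
Number of the 100 genes that are still among the 100 highest scores (horizontal) when a single choice is changed (vertical). Blue bars change the scaling, pseudocount, filter or score, grey bars leave out a library, and the dashed line marks 100. The shortest bars are those for means in place of extremes (25) and for FPKM without scaling (51).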

How the data were processed

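Kidney RNA of 12 fish was sequenced by the authors, who discarded any read holding a base of quality below 20, cut the rest to 75 bases and aligned them with TopHat2 2.0.3 to the BROADS1 genome with polymorphic positions masked. The deposited values are FPKM, which the authors estimated with Cufflinks 2.0.2. They hold no counts, so the reads behind a single value are unknown, although the study lists reads per library, and the count tests of the study (edgeR, DESeq, baySeq) could not be repeated. Groups were taken from the sample titles. Columns were scaled to a median of 10 over genes averaging 1 FPKM or more, and FW groups were compared with limma 3.58.1 (R 4.3.3, trend option) on log2(value + 1) of the 9 FW libraries. The fit was tested on simulated data with independent libraries, which could not show the effect of the likeness of replicates 2 and 3. Tables and figures were made with Python 3.11.15, pandas 2.3.3, numpy 2.4.6 and matplotlib 3.10.9. SW33K stayed out of the fit, since the genes were chosen to be low there. Same-numbered FW33K and FW11K libraries deviated together from their group means (correlations of 0.27, 0.40 and 0.27), so a fit with the replicate number as a block is given there where it ends a call, but not every same-numbered pair of the other 2 comparisons did. All genes of the set with a symbol were described, which covers the naming rule: the 15 highest-scoring, those called, those on a list or in an identifier run, and those near zero in SW33K. Role groups were formed after the names were seen. The genes and lists were chosen with earlier results of these data known. Symbols came from the study's gene list. A gene of the nephron list is not reported here. No sequences or coordinates are shown, since the identifiers had no match in the RefSeq gene table used here. Alternatives covered scaling, pseudocount, filter, threshold, samples in the fit, the replicate block and single libraries left out.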

Additional observations from a re-analysis of the deposited data

How the results depend on the processing

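The counts of changed genes among the 100 depended on the setting. For FW11K against FW00K (4 genes), the count was 0 on deposited FPKM, 14 with all 12 libraries in the fit, 0 with the 6 libraries compared, 0 with replicates 2 and 3 averaged and 27 at an adjusted p under 0.05. For FW33K against FW00K (5 genes), it was 68 on deposited FPKM (where 8387 of all 15503 genes were called lower), 22 after quantile normalization, 8 with all 12 libraries, 19 with the 6 libraries, 0 with replicates averaged and 19 at 0.05. For FW33K against FW11K (29 genes), it was 78 on deposited FPKM (4835 of all genes lower), 44 with all 12 libraries, 3 with the 6 libraries, 0 with replicates averaged and 65 at 0.05. Leaving out a library gave 0 to 58, 1 to 34 and 1 to 75 in these comparisons, and the cause of these shifts was not tested. Membership was 51 on deposited FPKM and 25 with means, and 61 to 100 when a library was left out. Under 0.5 in place of 0.1, the near-zero genes numbered 5. *MAP3K15* in FW33K against FW00K reversed to 0.16 after quantile normalization and to 0.10 without FW33K replicate 1, with a range of -0.26 to 0.10 over the single libraries left out. Of 599 single-gene values under alternatives, 438 kept direction and side of the threshold, 132 lost the call, 27 gained it and 2 reversed.

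The correlation of deviations between same-numbered libraries was -0.04 to 0.40, over 0.1 in 5 of 9 pairs, 3 of them those of FW33K and FW11K, and the library correlated best with its own number in 6 of the 9. With the replicate number as a block, 1, 7 and 29 of the 100 genes passed in FW11K against FW00K, FW33K against FW00K and FW33K against FW11K. The block ended 4 named calls, *CDK1* in FW11K against FW00K (adjusted p = 0.0192), *LIM2* in FW33K against FW00K (0.0158), and *PTAFR* (0.0119) and *DGKI* (0.0117) in FW33K against FW11K.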
